A study of Mus musculus with 4 samples.

Results

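Collagens, laminins and the proteins that bind them in basement membranes and fibres were followed in mouse hippocampus after chronic fluoxetine. The set held 127 probesets for 64 genes, out of 45037 probesets on the array without its controls, which name 18193 genes. Probesets were chosen by gene symbol: every collagen alpha chain, every laminin alpha, beta or gamma chain, and the glycoproteins and proteoglycans Nid1, Nid2, Hspg2, Fn1, Fbln1, Fbln2, Fbln5, Sparc, Lum, Dcn, Bgn and Ogn. Fbn1 was not analysed here. No intensity entered that choice, but the family was singled out with the fluoxetine and control values of these same arrays known, the rise of Col3a1 among them. Its counts are therefore a description of these arrays and no independent evidence.

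Collagens are made of alpha chains wound into a triple helix. Fibrillar chains assemble into the cables of connective tissue, whereas type IV collagen forms a sheet-like network. That network, a laminin network and the linkers nidogen and perlecan make up the basement membrane, which in brain surrounds the capillaries and lies under the pia mater. Between neurons the matrix is mostly hyaluronan and proteoglycans, and fibrillar collagen is found chiefly in the meninges, the choroid plexus stroma and around larger vessels.

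All mice were DBA/2J males, an inbred strain, aged 8 to 10 weeks by the labels. Fluoxetine mice drank water with fluoxetine, an antidepressant that blocks serotonin reuptake, at 18 mg/kg per day for 21 days, and control mice drank untreated water, a dose of 0. RNA from the hippocampi of both hemispheres of 6 mice was combined into a pool, and each of the 2 fluoxetine and 2 control pools, 12 mice per group, was hybridised to 1 Affymetrix mouse genome array. A pool hides the spread between its mice, and in whole hippocampus fewer cells of a type cannot be told apart from less RNA per cell. Arrays were alike in the number of probesets at an intensity of 100 or more, 16730 and 16612 in fluoxetine pools and 16866 and 16754 in control pools. Neuronal markers summed to 104130 and 105870 in fluoxetine pools and 105780 and 106480 in control pools. All 18 probesets of the hybridisation spike-ins, RNA added in fixed amount, were higher in both fluoxetine arrays, by a median log2 of 0.36 (0.17 to 0.55). The part of that shift in the values below was not tested.

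Most of the family was too dim to compare. A probeset was tested if it reached an intensity of 100, the submitters' minimum, in at least 2 of the 4 arrays. By that rule 29 of the 127 probesets, for 22 of the 64 genes, were tested. Of the other 98, 94 stayed under 100 in all arrays and 69 under 20. Tested genes were 6 of 11 fibrillar collagens, 6 of 21 basement membrane genes, 5 of 23 other collagens, 2 of 5 matrix glycoproteins and 3 of 4 small leucine-rich proteoglycans. No laminin alpha or gamma chain was tested. The nearest to the limit were Lamc1, the gamma chain shared by many laminins, at 80.2 and 60.0 in fluoxetine pools and 58.1 and 48.3 in control pools, and Lama2, at 80.1 and 71.8 in fluoxetine pools and 71.7 and 65.3 in control pools. Col1a1, which with Col1a2 makes type I collagen, was at 20.2 and 12.4 in fluoxetine pools and 9.31 and 13.2 in control pools at its brighter probeset.

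**Figure D1:**
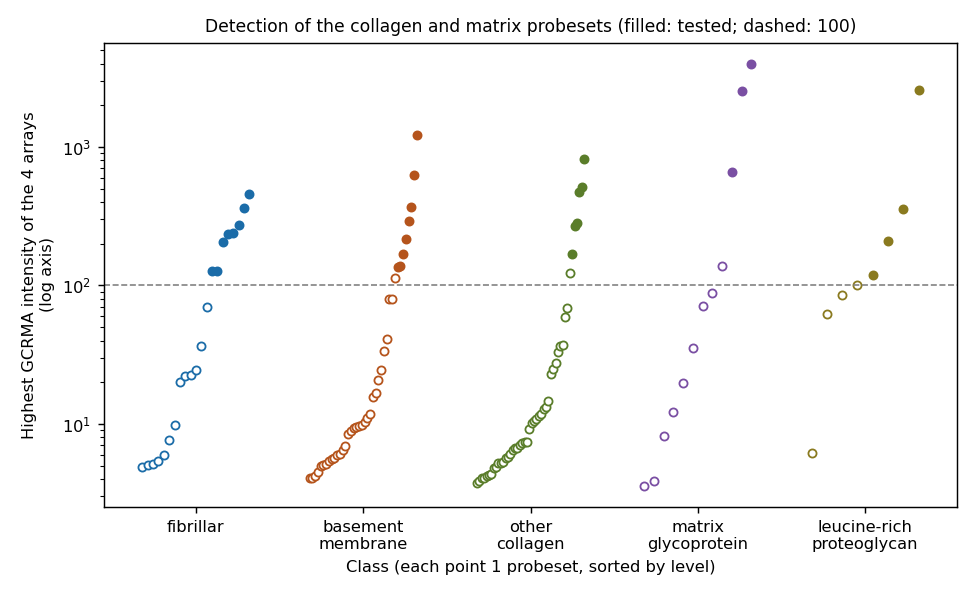
Highest GCRMA intensity of each of the 127 probesets over the 4 arrays, on a log axis, by class. Filled points are the 29 tested probesets, open points the other 98, and the dashed line is the minimum of 100. Sparc, Dcn and Col4a1 are the brightest genes of the set.

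Among the 29 tested probesets, 6 rose in fluoxetine pools and 0 fell at an adjusted p under 0.05 by limma, against 1.03% higher and 0.685% lower of the 16938 probesets tested on the whole array. The 6 belong to 5 genes: the fibrillar chain Col3a1, the basement membrane genes Col4a1 and Nid1, the matricellular glycoprotein Sparc with both of its tested probesets, and the proteoglycan Bgn. With each gene represented by the brightest of its tested probesets, 4 of 22 rose and 0 fell, against 1.31% and 0.554% of 9030 genes. Col4a1 is not among these 4, because its brighter probeset did not pass. The median log2 fold change of the 22 genes was 0.43 and 19 were above 0, whereas the median over all 9030 genes was -0.03 and 43.5% were above 0. Col3a1 and Nid1 passed the filter only through the fluoxetine pools, where they are high. With 100 required in all 4 arrays, 2 of 15 genes rose, Sparc and Bgn. The median of the 22 genes was 0.36 with values under 100 set to 100.

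Values of the groups overlapped at 10 of the 29 probesets. Both fluoxetine pools lay above both control pools at 17, against 21.9% of all tested probesets, and below both at 2, against 34.2%. The filter itself favours such a pattern and calls in that direction, since Col3a1, Nid1, Col27a1 and the dimmer tested Bgn probeset, 4 of the 29, reached 100 only in the fluoxetine pools. At 17 of the 29 the unadjusted p by limma was under 0.05, against 3816 of all 16938 tested probesets. With any 1 array left out, the median log2 fold change of the 22 genes ran from 0.446 to 0.582.

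**Figure D2:**
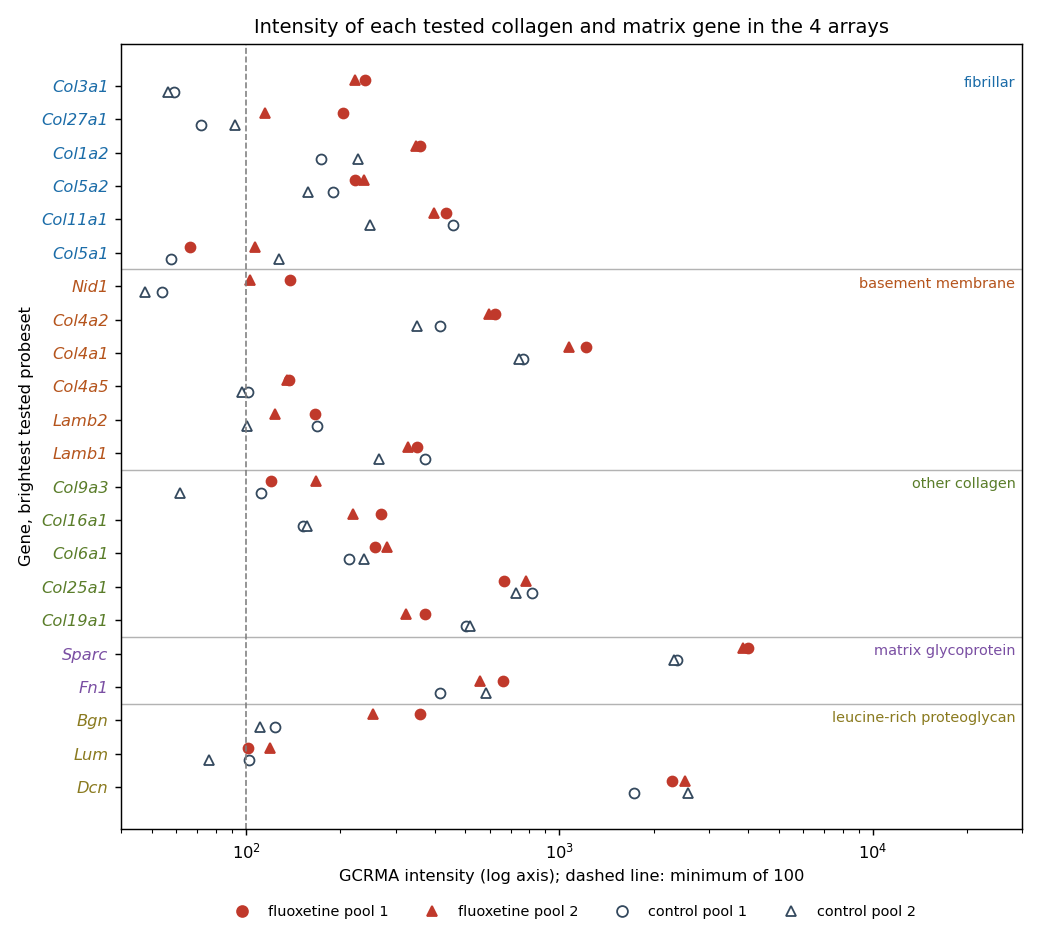
GCRMA intensity, on a log axis, of the 22 tested genes at their brightest tested probeset, by class. Filled red symbols are fluoxetine pools and open symbols control pools, circles are pool 1 and triangles pool 2, and the dashed line marks 100. Col3a1, Nid1, Sparc and Bgn show the groups apart, whereas control pools lie on both sides of the fluoxetine pools for Col5a1 and Col11a1.

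The bases upstream of 3 genes that rose are shown because, of the probesets that rose, Col3a1 had the lowest adjusted p, Bgn the largest log2 fold change with both groups above 100, and Sparc the highest intensity. They come from RefSeq (build GRCm38.p6) and run 5′ to 3′ on the gene's strand up to the base before the annotated start. Capitals mark the TATA motif TATAAA, the CCAAT box CCAAT and the GC box GGGCGG, searched on both strands. The windows are chr1:45311288-45311537 on the plus strand, chrX:73483351-73483600 on the plus strand and chr11:55420081-55420330 on the minus strand.
Col3a1: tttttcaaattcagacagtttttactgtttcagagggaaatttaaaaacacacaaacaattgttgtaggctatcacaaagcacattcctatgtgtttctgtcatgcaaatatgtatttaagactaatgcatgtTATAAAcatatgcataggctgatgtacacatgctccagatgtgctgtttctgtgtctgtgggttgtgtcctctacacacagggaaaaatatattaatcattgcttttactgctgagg
Bgn: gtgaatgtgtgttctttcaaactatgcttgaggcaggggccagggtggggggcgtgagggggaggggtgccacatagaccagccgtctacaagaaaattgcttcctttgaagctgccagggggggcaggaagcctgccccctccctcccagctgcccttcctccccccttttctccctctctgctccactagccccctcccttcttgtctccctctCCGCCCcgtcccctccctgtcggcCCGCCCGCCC
Sparc: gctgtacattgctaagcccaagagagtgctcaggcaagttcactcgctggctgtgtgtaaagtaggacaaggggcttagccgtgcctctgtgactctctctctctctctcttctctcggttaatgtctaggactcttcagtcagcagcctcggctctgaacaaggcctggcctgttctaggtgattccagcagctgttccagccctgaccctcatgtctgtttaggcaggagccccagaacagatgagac

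The 3 windows differ in these letters. Col3a1 holds 1 TATA motif, which begins 117 bases before the annotated start, Bgn 3 GC boxes, the last 2 of which overlap, and Sparc none of the 3 motifs. Nid1 held 1 CCAAT box and 1 GC box. Of 32851 RefSeq windows of 250 bases, 12.4% held the TATA motif, 33.8% the CCAAT box and 32.7% the GC box. Windows were found for 46 of the 64 genes, and 6, 16 and 28 of these genes held the TATA motif, the CCAAT box and the GC box. A gene with several windows was counted if any of them held the motif. The counts of genes and the shares of windows therefore differ in unit.

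Col4a1 and Col4a2, the chains of the main type IV collagen, are transcribed away from each other, and the annotated genes overlap at their 5′ ends, so that the bases just before the Col4a2 start lie in Col4a1. Sequence chr8:11312757-11312786, plus strand, begins 48 bases before the annotated Col4a2 start. It holds a GC box read on the other strand and a CCAAT box, in capitals.
Col4a1 and Col4a2: CCGCCCgaggagctccCCAATttgttggcg

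Fibrillar collagen genes were led by Col3a1, which encodes the type III collagen of vessel walls and other elastic tissues. Its intensity was 239 and 223 in fluoxetine pools, against 59.0 and 56.4 in control pools. Both control values were under 100, so the rise is given as at least 2.31-fold. On the measured values the log2 fold change was 2.00 ± 0.07 (limma SE, from 2 pools in each group, as for all values that follow, adjusted p = 0.00934). Its other probeset lay at 5.82 and 5.92 in fluoxetine pools and 5.75 and 5.82 in control pools, near the floor of the array, and gives no second reading.

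The next fibrillar genes were higher in both fluoxetine pools without passing. Col1a2, the second chain of type I collagen, was at 360 and 348 in fluoxetine pools and 174 and 228 in control pools, a log2 difference of 0.83 ± 0.14 (adjusted p = 0.0711). Col27a1, a fibrillar chain of cartilage, was at 205 and 115 in fluoxetine pools and 71.7 and 92.0 in control pools, at least 1.53-fold higher (adjusted p = 0.179). Its fluoxetine pools differed from each other by 0.83 on the log2 scale.

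Col5a2 and Col5a1 encode chains of type V collagen, which is found inside type I fibrils and limits their width. Col5a2 was at 222 and 237 in fluoxetine pools and 190 and 158 in control pools (log2 0.41 ± 0.11, adjusted p = 0.138), and its dimmer probeset at log2 0.16 ± 0.11. Col5a1 was at 66.4 and 107 in fluoxetine pools and 57.5 and 127 in control pools. The pool number, not the treatment, separates these 4 values, and the group difference was -0.02 ± 0.44 on the log2 scale. The type XI chain Col11a1 was at 433 and 398 in fluoxetine pools and 458 and 249 in control pools (log2 0.30 ± 0.29, adjusted p = 0.590), with control pool 1 above both fluoxetine pools. Its second probeset did not overlap between groups and was at log2 0.59 ± 0.35 (adjusted p = 0.384). In the fibrillar class 1 of 6 genes, Col3a1, rose and 0 fell, against 1.31% and 0.554% of all 9030 genes. Col3a1 was admitted by the filter only through the fluoxetine pools, where it is high. The median log2 fold change of the class was 0.62.

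In the basement membrane class 1 of 6 genes, Nid1, rose at its brightest probeset and 0 fell, against 1.31% and 0.554% of all 9030 genes. Nid1 reached 100 only in the fluoxetine pools, so the filter admitted it through the group where it is high. All 6 genes were above 0, against 43.5% of all genes, with a median log2 of 0.53. Nid1, or nidogen, links the laminin network to type IV collagen. It was at 138 and 103 in fluoxetine pools, against 54.1 and 47.5 in control pools, at least 1.19-fold higher and 1.23 ± 0.16 on the measured log2 scale (adjusted p = 0.0494). That fold rests on control values under 100: with values under 100 set to 100, the log2 fold change was 0.25 (adjusted p = 0.384).

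The tested type IV collagen chains, Col4a1, Col4a2 and Col4a5, were higher in every fluoxetine pool than in any control pool. Col4a1 was at 1216 and 1072 in fluoxetine pools and 766 and 742 in control pools at its brighter probeset, which did not pass (log2 0.60 ± 0.09, adjusted p = 0.0590). Its dimmer probeset rose, with 216 and 190 in fluoxetine pools against 86.8 and 103 in control pools (log2 1.10 ± 0.12, adjusted p = 0.0380). Both probesets separate the groups, the dimmer one by more. Col4a2, which joins Col4a1 in the same trimer, was at 623 and 597 in fluoxetine pools and 416 and 350 in control pools (log2 0.68 ± 0.10, adjusted p = 0.0634). Col4a5, a chain of another type IV trimer, was at 137 and 136 in fluoxetine pools and 101 and 97.1 in control pools (log2 0.46 ± 0.07, adjusted p = 0.0590). The other type IV chains, Col4a3, Col4a4 and Col4a6, stayed under 100 in all arrays.

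Laminin beta chains did not show this pattern. Lamb1 was at 350 and 328 in fluoxetine pools and 372 and 266 in control pools (log2 0.11 ± 0.17, adjusted p = 0.745), and its second probeset at log2 -0.06 ± 0.22. Lamb1 was the only one of the 7 genes with 2 tested probesets whose probesets differed in sign. Lamb2 was at 165 and 123 in fluoxetine pools and 169 and 101 in control pools (log2 0.13 ± 0.29, adjusted p = 0.813). For both genes pool 1 was above pool 2 in each group, and the groups overlapped. Hspg2, which encodes perlecan, a heparan sulphate proteoglycan of basement membranes, reached 100 in 1 array and was not tested, with 78.1 and 113 in fluoxetine pools and 65.2 and 88.0 in control pools.

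**Figure D3:**
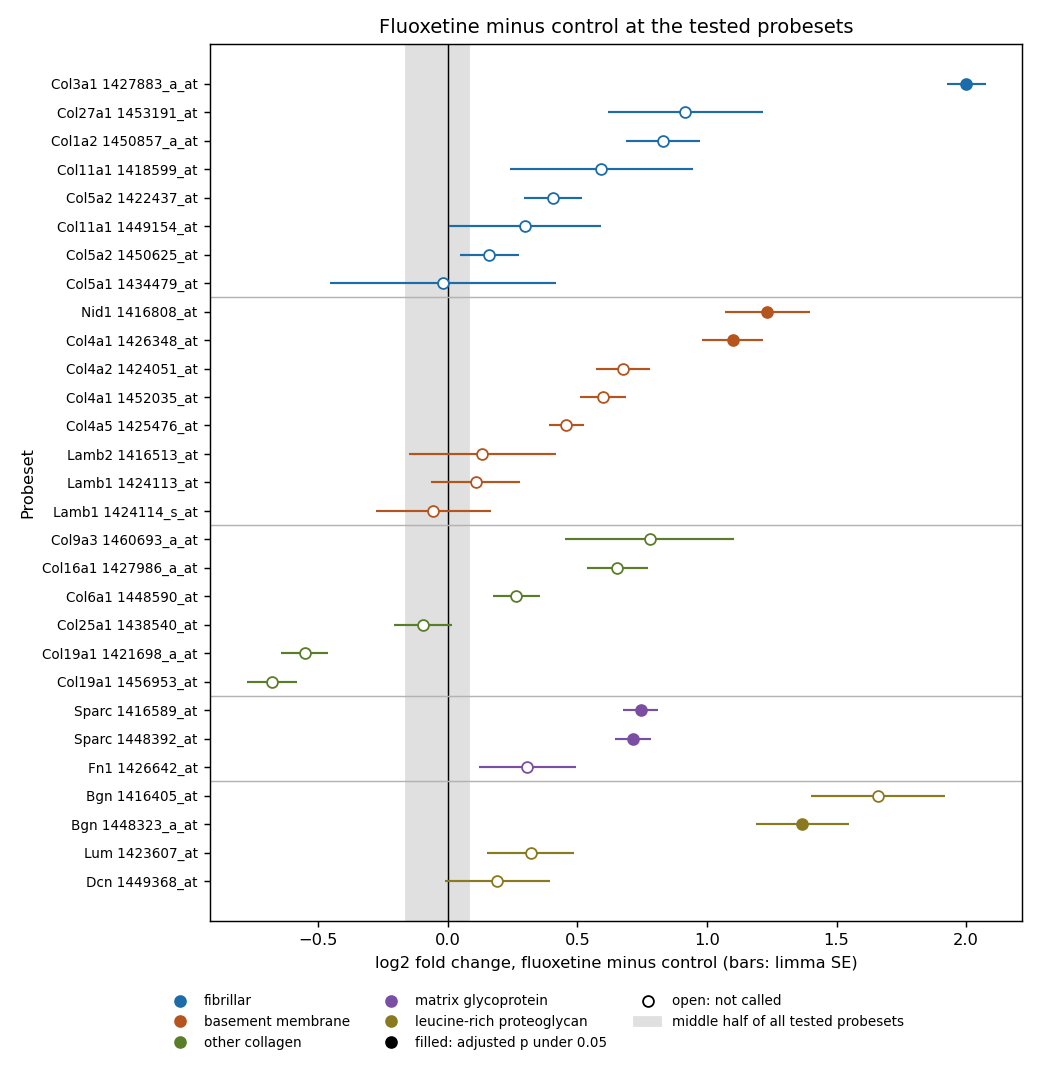
Log2 fold change, fluoxetine minus control, with limma standard errors, for the 29 tested probesets ordered by class. Filled points are the 6 probesets with an adjusted p under 0.05, and the grey band spans the quartiles of all tested probesets on the array (-0.16 to 0.08). Col19a1 is the only gene with both probesets below that band. Col3a1, Nid1, Col27a1 and the upper Bgn point have both control values under 100. The called Col4a1 point, Col4a5, the lower Col5a2 point, Col5a1, Col9a3 and Lum have a single control value under 100.

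Of the 5 tested genes among the other collagens 0 rose and 0 fell, with 3 above 0 and 2 below, and a median log2 of 0.26. Col19a1, a fibril-associated chain that in mouse brain is made by neurons, was lower in both fluoxetine pools at both probesets. It was at 372 and 325 in fluoxetine pools and 502 and 518 in control pools (log2 -0.55 ± 0.09, adjusted p = 0.0683), and at 287 and 267 against 414 and 474 at its second probeset (log2 -0.68 ± 0.10, adjusted p = 0.0544). Neither probeset passed. Col25a1, a membrane-spanning collagen of neurons, was at 666 and 783 in fluoxetine pools and 819 and 728 in control pools (log2 -0.10 ± 0.11, adjusted p = 0.649), with overlapping values.

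The 3 genes above 0 in this class had groups that did not overlap. Col16a1, a fibril-associated chain, was at 270 and 219 in fluoxetine pools and 152 and 157 in control pools (log2 0.65 ± 0.12, adjusted p = 0.0771). Col6a1, a chain of the beaded filaments of type VI collagen, was at 258 and 282 in fluoxetine pools and 212 and 237 in control pools (log2 0.26 ± 0.09, adjusted p = 0.193). Col9a3, a chain of the fibril-associated type IX collagen, was at 121 and 167 in fluoxetine pools and 112 and 61.4 in control pools (log2 0.78 ± 0.33, adjusted p = 0.250). Its control pools differed by 0.86 on the log2 scale, more than the groups did. Col23a1, a membrane-spanning collagen, reached 100 only in control pool 2 and was not tested, with 59.4 and 68.8 in fluoxetine pools and 87.9 and 122 in control pools.

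Among the matrix glycoproteins Sparc rose and had the highest intensity of the whole set. Sparc, also called osteonectin, binds collagen and is secreted in brain by glia and vessel cells. It was at 3988 and 3859 in fluoxetine pools, against 2368 and 2319 in control pools (log2 0.74 ± 0.07, adjusted p = 0.0341). The second probeset gave 2457 and 2521 in fluoxetine pools and 1555 and 1478 in control pools (log2 0.72 ± 0.07, adjusted p = 0.0352). The 2 pools of a group differed by at most 0.07 on the log2 scale at either probeset. Fn1, fibronectin, gave no single direction. Its brighter probeset was at 662 and 559 in fluoxetine pools and 416 and 582 in control pools (log2 0.31 ± 0.19, adjusted p = 0.395). The dimmer one, not tested, was lower in both fluoxetine pools, with 62.0 and 57.8 against 95.9 and 139 in control pools. The fibulins Fbln1, Fbln2 and Fbln5, which bind elastic fibres and basement membranes, stayed under 100 in all arrays.

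Small leucine-rich proteoglycans bind collagen fibrils and steer their spacing. Bgn, biglycan, rose to 358 and 255 in fluoxetine pools, against 124 and 111 in control pools (log2 1.37 ± 0.18, adjusted p = 0.0480). Its second tested probeset was at 209 and 122 in fluoxetine pools and 51.1 and 49.9 in control pools, at least 1.60-fold higher (adjusted p = 0.0636), and another, untested, at 62.5 and 42.5 in fluoxetine pools and 19.9 and 25.8 in control pools. All 3 Bgn probesets place both fluoxetine pools above both control pools. Dcn, decorin, the nearest relative of biglycan, was at 2288 and 2522 in fluoxetine pools and 1724 and 2570 in control pools (log2 0.19 ± 0.20, adjusted p = 0.614). Lum, lumican, was at 102 and 119 in fluoxetine pools and 102 and 76.3 in control pools (log2 0.32 ± 0.17, adjusted p = 0.333). Neither gene separated the groups.

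Ogn, osteoglycin or mimecan, was below the limit for testing. One probeset was at 15.9 and 18.6 in fluoxetine pools and 77.1 and 101 in control pools, and the other at 58.9 and 29.7 in fluoxetine pools and 71.4 and 85.3 in control pools. Both place the fluoxetine pools below the control pools, but only control pool 2 reached 100, at 1 probeset. No fold is given because nearly all of these values lie under 100. With probesets admitted at 100 in 1 array, the first had an adjusted p = 0.0343 by limma, and that filter lets such a gene in only through the group where it is high.

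Some members lie side by side in the genome. Col3a1, which rose, neighbours Col5a2, which was also higher in both fluoxetine pools but did not pass, and the difference between the genes was not tested. Dcn neighbours Lum, and neither passed. The adjoining pair Col4a1 and Col4a2 had log2 differences of 0.60 and 0.68 at their brightest probesets. Of the adjoining Col4a6 and Col4a5, only Col4a5 was bright enough to test, and of Col9a1 and Col19a1, only Col19a1.

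Genes that process, remodel or bind these proteins gave 2 calls in 4 lists. Of 28 collagen maturation genes on the array 12 were tested and 0 rose or fell by limma, with a median log2 of 0.08. Serpinh1, the collagen chaperone, was at 180 and 109 in fluoxetine pools and 76.5 and 61.3 in control pools, at least 1.40-fold higher (adjusted p = 0.126). Pcolce, which enhances removal of the procollagen propeptide, was at log2 0.71 ± 0.17 (adjusted p = 0.117). Colgalt1, which adds galactose to collagen, was at log2 -0.38 ± 0.07 (adjusted p = 0.0723).

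Of 9 tested matrix turnover genes 0 passed, with a median of 0.17 and 6 above 0. Plat, the tissue plasminogen activator, was at log2 0.71 ± 0.10 (adjusted p = 0.0558), and Timp4 at -0.22 ± 0.07 (adjusted p = 0.176). Of 14 tested matrix receptors 0 passed, with a median of 0.19 and 11 above 0. Itga6, an integrin alpha chain that binds laminin, was at log2 0.64 ± 0.11 (adjusted p = 0.0707), and Itgav at 0.40 ± 0.07 (adjusted p = 0.0672). Itgb8 was at 0.49 ± 0.11 (adjusted p = 0.0994), and Itga8 was lower in both fluoxetine pools, at -0.35 ± 0.11 (adjusted p = 0.176). Of 14 tested genes of the TGF-beta list 2 rose and 0 fell, against 1.31% and 0.554% of all 9030 genes. The median of the list was 0.04. The activin subunit Inhba rose, at 309 and 296 in fluoxetine pools against 38.4 and 43.5 in control pools, at least 3.02-fold (adjusted p = 0.00614). The filter admitted Inhba only through the fluoxetine pools, where it is high. The receptor Tgfbr2 rose too, at 598 and 487 in fluoxetine pools against 291 and 296 in control pools (log2 0.88 ± 0.12, adjusted p = 0.0486).

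Markers of cells that make these matrix genes moved with the groups in part. Over the whole array 1.31% of genes rose and 0.554% fell by limma. Both fluoxetine pools were above both control pools at 21.9% of all tested probesets and below both at 34.2%. Of 11 tested endothelial markers 1, Slc16a1, rose and 0 fell, 10 were above both control pools in both fluoxetine pools, and the list summed to 10637 and 10642 in fluoxetine pools and 8802 and 8241 in control pools. Of 7 tested mural markers 2 rose, the pericyte genes Rgs5 and Abcc9, and 0 fell. Both fluoxetine pools were above both control pools for 4 and below both for 2, the smooth muscle genes Myh11 (log2 -0.60, adjusted p = 0.0814) and Acta2 (log2 -0.27, adjusted p = 0.165). The list summed to 5705 and 5590.5 in fluoxetine pools and 4734 and 4716 in control pools. Of 10 tested astrocyte markers 3, Gfap, Vim and Aqp4, rose and 0 fell. Both fluoxetine pools were above both control pools for 6 and below both for 2, Fgfr3 (log2 -0.44, adjusted p = 0.110) and Slc1a3 (log2 -0.06, adjusted p = 0.639), and the list summed to 82950 and 84459 in fluoxetine pools and 68628 and 70986 in control pools. Of 9 tested microglial markers 4, C1qa, C1qb, Tyrobp and Cd53, rose and 0 fell (7422 and 7224 in fluoxetine pools, 4611 and 4514 in control pools). Their part in the rise of Col3a1, Col4a1, Nid1, Sparc and Bgn was not tested. Of 5 blood markers listed 2 were matched by a single symbol, Hba-a1 and Alas2, and their intensities summed to 8.5 in each array, while the others were not analysed here.

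Meningeal markers gave no single direction. Of 26 on the array 12 were tested, 0 rose and 1 fell, Cemip (log2 -0.68 ± 0.09, adjusted p = 0.0486). Of the 12, 4 were above 0, and the median log2 was -0.25. Both fluoxetine pools were below both control pools for 5 and above both for 4, Igfbp6 (log2 0.82 ± 0.14, adjusted p = 0.0707), Aldh1a1, Igfbp5 and Gjb6. The list summed to 16351 and 11979 in fluoxetine pools, against 17137 and 23220 in control pools, with 12 of the 26 under 100 in all arrays. Ptgds, a prostaglandin synthase also made by other brain cells, supplied most of that sum, with 8821 and 5295 in fluoxetine pools and 10285 and 15944 in control pools. Without Ptgds, an alternative chosen after seeing the data, the other 25 genes summed to 7530.1 and 6684 in fluoxetine pools. In control pools they summed to 6852 and 7276, so the groups overlap. That sum weighs bright genes most, Igfbp5, Gjb6 and Pdgfra being the brightest of the 25. Igfbp5 was at 2125 and 2174.5 in fluoxetine pools and 1926 and 1961 in control pools. The transporter gene Slc6a20a had the same order of arrays as Ptgds, with 267 and 137 in fluoxetine pools and 282 and 393 in control pools. In both genes control pool 2 was highest and fluoxetine pool 2 lowest. Over the 29 tested matrix probesets, fluoxetine pool 1 was highest at 14, fluoxetine pool 2 at 6, control pool 1 at 5 and control pool 2 at 4. Those 4 were the probesets of Dcn and Col5a1 and both of Col19a1. Control pool 2 was also highest for the untested Fn1 and Ogn probesets described above.

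The choroid plexus sum, most of it Ttr, followed the pool number rather than the treatment. The transthyretin gene Ttr was at 51101 and 4429 in fluoxetine pools 1 and 2 and at 37856 and 2002 in control pools 1 and 2. The list of 17 markers on the array summed to 52485 and 5384 in fluoxetine pools and 38895 and 2857 in control pools, 13 being under 100 in all arrays. Of the 3 tested, Kl also had pool 1 above pool 2, at 120 and 31.7 in fluoxetine pools and 120 and 49.0 in control pools. Slco1a4 did not, at 746 and 775 in fluoxetine pools and 618 and 663 in control pools. Both its fluoxetine pools lay above both control pools (log2 0.25 ± 0.07, adjusted p = 0.154 by limma). Pool 1 was above pool 2 in both groups at 13 of the 29 tested probesets of the matrix set, and pool 2 above pool 1 in both at 3. The 13 belong to Col3a1, Col11a1, Col4a1, Col4a2, Col4a5, Nid1, Lamb1, Lamb2, Sparc and Bgn. They include every gene with a called probeset, but Col4a1 only through its brighter probeset, which was not called. The called Col4a1 probeset did not follow the pool number. Its pool 1 minus pool 2 was log2 0.19 in the fluoxetine group and -0.24 in the control group. At Sparc the pools differed by only 0.05 and 0.03 on the log2 scale, and its other tested probeset did not follow the pool number. The share of such probesets over the whole array was not counted. The part of choroid plexus or meninges in these values was not tested.

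**Figure D4:**
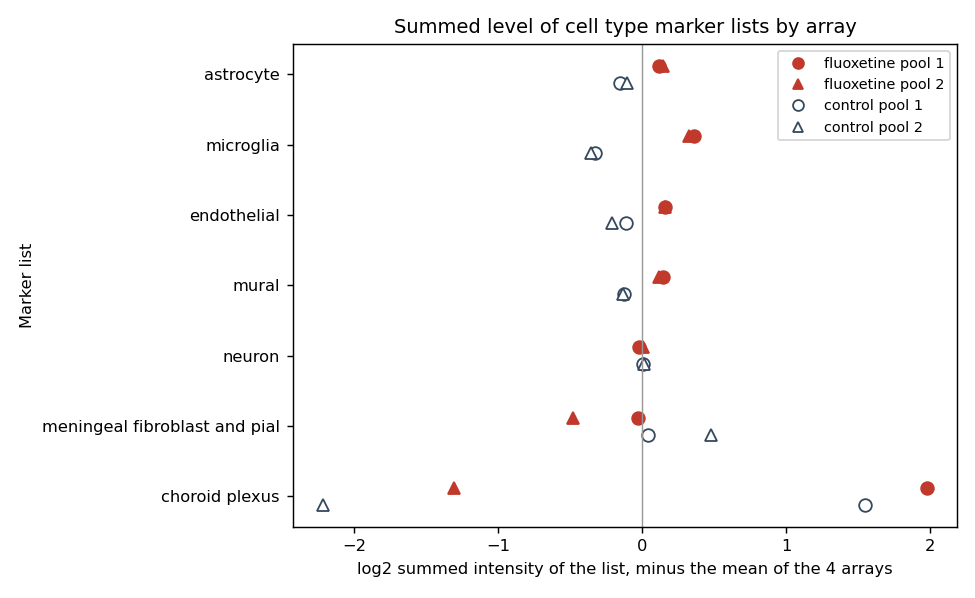
Summed intensity of 7 cell type marker lists in each array, as log2 minus the mean of the 4 arrays. Filled red symbols are fluoxetine pools, open symbols control pools, circles pool 1 and triangles pool 2. Astrocyte, microglial, endothelial and mural sums are higher in both fluoxetine pools, meningeal sums are lower in both when Ptgds is included, as here, and choroid plexus sums separate pool 1 from pool 2.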

How the data were processed

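Hippocampal RNA pools were measured on 4 arrays, 2 fluoxetine and 2 control, grouped by sample title. The deposited values are linear intensities, 1 per probeset, which the authors had normalized with GCRMA (ArrayAssist), per the labels. GCRMA pulls dim probesets towards a common floor.

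Intensities were taken to log2 without a pseudocount. Of 45101 probesets 64 controls were left out, and the 16938 with at least 100 in 2 of 4 arrays were tested with limma 3.58.1 in R 4.3.3 (lmFit, eBayes, two-sided). P-values were adjusted over all of them by the Benjamini-Hochberg method. They test the group difference against the spread between pools, which limma moderates with that of all tested probesets. With 2 arrays against 2, no exact permutation p can be under 0.333. Where all arrays of a group were under 100, the fold is the other group's geometric mean over 100. Probesets were named from the platform annotation, in which 34945 had 1 symbol, 932 several and 9160 none, and all 127 members had the same symbol in the RefSeq gene table.

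Members, classes and lists were chosen with earlier results of these data known. Every tested member is named. Of the other lists, called genes, some of the largest changes and Ttr are named. Alternatives were other intensity filters, normalizations, a floor, a pseudocount, probeset choices, models and left-out arrays.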

Additional observations from a re-analysis of the deposited data

How the results depend on the processing

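The count of 6 probesets that rose, of 175 on the whole array, became 0 with no intensity filter. Over the whole array 0 probesets were called there. There limma gave an unadjusted p under 0.05 to 27 of 127 members, against 5396 of all 45037 probesets. The count became 3 with 100 required in all 4 arrays, of 158 on the whole array. It became 10 with quantile normalization (of 262), with median centring (of 283), and with eBayes trend and robust settings (of 319). With any 1 array left out, a group holds 1 array, and calls are not given. The count of 0 that fell, of 116 on the whole array, became 1 with 100 in 1 array (Ogn, of 46). It became 1, Col19a1 each time, with 100 in all arrays (of 100), median centring (of 147) and a pseudocount of 32 (of 135). It became 2, both Col19a1 probesets, with trend and robust settings (of 213). With the pool number as a replicate block 1 probeset was called, Col3a1, of 9 on the whole array. The 2 groups share only pool numbers, and the pool differences of the groups correlated at 0.14 over all tested probesets.

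Of genes, 4 rose, against 0 with no filter and 1 with the replicate block. The count was 2 with 100 in 1 array or in all arrays. It was 7 with quantile normalization, median centring, trend and robust settings, or the mean over a gene's tested probesets. Shares over all genes under these settings are not given here. The count of 0 genes that fell became 1 with 100 in 1 array, trend and robust settings, and probeset means.

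The median log2 fold change of all members, 0.43, was 0.12 with no filter, 0.32 with 100 in 1 array and 0.31 in all arrays, and ran from 0.446 to 0.582 with 1 array left out. The fibrillar median was 0.41 with no filter and in all arrays, and the basement membrane median 0.13 with no filter. The median of the other collagens was 0.0254 with no filter and 0.0837 with the other 2 filters and over all tested probesets. The glycoprotein median was 0.0845 with no filter and 0.72 over probesets, and the proteoglycan median 0.78 in all arrays and 0.84 over probesets.

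Directions changed only for genes that had not passed. At every called probeset both fluoxetine pools lay above both control pools, so leaving out 1 array could not change its sign. Col5a1 became 0.0249 with quantile normalization and 0.00914 with median centring. With 1 array left out, Col5a1 ran from -0.591 to 0.55, Col11a1 from -0.14 to 0.736, Lamb1 from -0.13 to 0.348, Lamb2 from -0.24 to 0.506, Dcn from -0.10 to 0.479 and Col25a1 from -0.214 to 0.0204. Col11a1, Lamb1 and Lamb2 were below 0 without control pool 2, Lamb2 also without fluoxetine pool 1 (-0.08), and Dcn without control pool 1. Col5a1 was above 0 without control pool 2 or fluoxetine pool 1 (0.33), and Col25a1 without fluoxetine pool 1. Without losing their sign, Fn1 ran from 0.0637 to 0.549 (lowest without control pool 1), Lum from 0.109 to 0.530 and Col9a3 from 0.346 to 1.21 (both lowest without control pool 2), and Col27a1 from 0.501 to 1.33 (lowest without fluoxetine pool 1). Causes were not tested.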
